A study of Mus musculus with 4 samples.

Results

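Histone deacetylases were examined in HL-1, a mouse atrial muscle cell line that beats in culture, as every probe set that the array annotation gave to exactly 1 of 10 genes: Hdac1, Hdac2, Hdac3, Hdac4, Hdac5, Hdac6, Hdac7, Hdac8, Hdac9 and Hdac11. All 10 genes were found, with 17 of the 45101 probe sets, among 18193 genes that had a probe set with 1 symbol. Of the 4 samples, 2 were HL-1 cells driven for 24 h by electrical stimuli at 300 beats per minute, a rate 1.5 to 2 times that of the controls per the labels, and 2 were HL-1 cells that contracted spontaneously without pacing. All cells were grown in supplemented Claycomb medium, to confluence in the protocols and to a confluency of 90% in another label, and total RNA of each sample was hybridised to 1 Affymetrix array. No sample was paced at the control rate, so pacing as such and the faster rate cannot be told apart. HL-1 cells descend from an atrial tumour of a transgenic mouse that carried the SV40 large T antigen under the promoter of the atrial natriuretic peptide gene, so they divide in culture and represent a single line. Apart from experiment numbers, the labels do not state whether samples came from separate cultures, and p-values cover only the spread among these arrays, part of which may be technical.

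Histone deacetylases remove acetyl groups from lysines of histones and other proteins, which usually lowers transcription. Class I enzymes (HDAC1, HDAC2, HDAC3 and HDAC8) are mainly nuclear, and the first 3 are catalytic subunits of corepressor complexes. Class IIa enzymes (HDAC4, HDAC5, HDAC7 and HDAC9) bind transcription factors of the MEF2 family, and in heart muscle calcium-dependent kinases phosphorylate them so that 14-3-3 proteins carry them out of the nucleus. HDAC6, of class IIb, acts mostly in the cytoplasm on tubulin and other proteins, and HDAC11 is the only class IV enzyme. The arrays measured transcripts, not enzyme amount, phosphorylation, location or activity.

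Sequence just upstream of Hdac5 and Hdac11 is shown. Hdac5 was taken as a class IIa gene, whose protein partners MEF2 bind DNA. That reason holds for Hdac4, Hdac7 and Hdac9 as well. Hdac11 was taken as the gene outside both classes that read higher on each of its probe sets. Both stretches are from RefSeq in the build GRCm38.p6, run 5′ to 3′ in the gene's direction and end 1 base before the outermost annotated start of the gene. RefSeq promoter windows were matched for 8 of the 10 genes, Hdac1 and Hdac3 being those not matched. Among the members, motifs were searched only upstream of Hdac5, Hdac7 and Hdac11. The matches below are therefore not the outcome of a search over all 8. The Hdac5 stretch is the 250 bases at chr11:102230173-102230422 on the minus strand, and the Hdac11 stretch is the 105 bases at chr6:91156565-91156669 on the plus strand. Capitals mark matches, on either strand, to any of 8 motifs. These were the GC box with the letters GGGCGG, the CCAAT box, the TATA box with the letters TATAAA, the cyclic AMP response element with the letters TGACGTCA, the E box with the letters CACGTG, the AP-1 site with the letters TGANTCA, the heat shock element with the letters GAANNTTC, and the MEF2 site, taken as CTA and TAG with any 4 bases between them.
Hdac5: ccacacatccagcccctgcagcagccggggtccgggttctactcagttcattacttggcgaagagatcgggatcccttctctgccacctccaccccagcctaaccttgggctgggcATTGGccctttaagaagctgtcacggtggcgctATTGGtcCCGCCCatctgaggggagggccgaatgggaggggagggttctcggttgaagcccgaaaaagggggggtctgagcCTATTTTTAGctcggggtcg
Hdac11: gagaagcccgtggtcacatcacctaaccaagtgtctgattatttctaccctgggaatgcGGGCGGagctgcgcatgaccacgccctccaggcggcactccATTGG
The Hdac5 stretch held 1 match to the MEF2 motif, 10 bases before its end, as did 3.2% of all 32851 promoter windows of that length. It also held 1 GC box (32.7% of windows had any) and 2 CCAAT matches (33.8% of windows had any). The Hdac11 stretch held 1 GC box and 1 CCAAT match, found in 11.1% and 14.3% of windows cut to that length. The cut kept the first 105 of the 250 bases of each window, those farthest from its start. These 2 shares are therefore not rates for bases next to a start, where the Hdac11 stretch ends. No matches overlapped. The 250 bases before the outermost start of Hdac7, at chr15:97844503-97844752, held 0 matches to the 8 motifs. These are matches of letters and were not tested for binding or for a part in the levels below.

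Read from the probe set of highest mean, transcripts of the histone deacetylases lay close to the control level after a day of rapid pacing. Hdac2, a class I gene, read 1.23-fold higher and Hdac8, another class I gene, read 0.80 of the control level; these were the 2 largest differences among the probe sets used for the genes, and neither passed the test. Hdac6 and 3 class IIa genes, Hdac4, Hdac5 and Hdac7, read between 87.8% and 97.7% of control, and Hdac11 read 111.5% of control. With limma and Benjamini-Hochberg adjustment over 13058 genes, 0 of the 9 genes bright enough to test passed at an adjusted p of 0.05, where 5.53% of all genes tested passed, 3.91% higher and 1.62% lower. At an unadjusted p under 0.05 there were also 0 of the 9, against 25.6% of all genes. Adjusted p lay between 0.20 for Hdac8 and 0.915 for Hdac7.

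The precision of the fit bounds these differences. The 95% confidence intervals of the 9 genes, each unadjusted for the number of genes, ran at their widest from -0.64 (Hdac8) to 0.67 (Hdac2) on the log2 scale, or from 0.642 to 1.60 of the control level. A 2-fold difference in either direction lay outside every one of these 9 intervals. Over the 14 probe sets of the members past the filter, the intervals ran from -0.65 to 0.82, or from 0.637 to 1.77 of the control level. Those of the other Hdac11 probe set (0.13 to 0.82) and of another Hdac2 probe set (0.043 to 0.68) lay above 0. The median size of the difference was 0.15 over the 9 genes and 0.19 over all genes tested, and 31.3% of all genes differed by more than Hdac8. With 2 arrays per group an exact two-sided permutation test of a single gene cannot go below p = 0.333, so none was run.

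**Figure D1:**
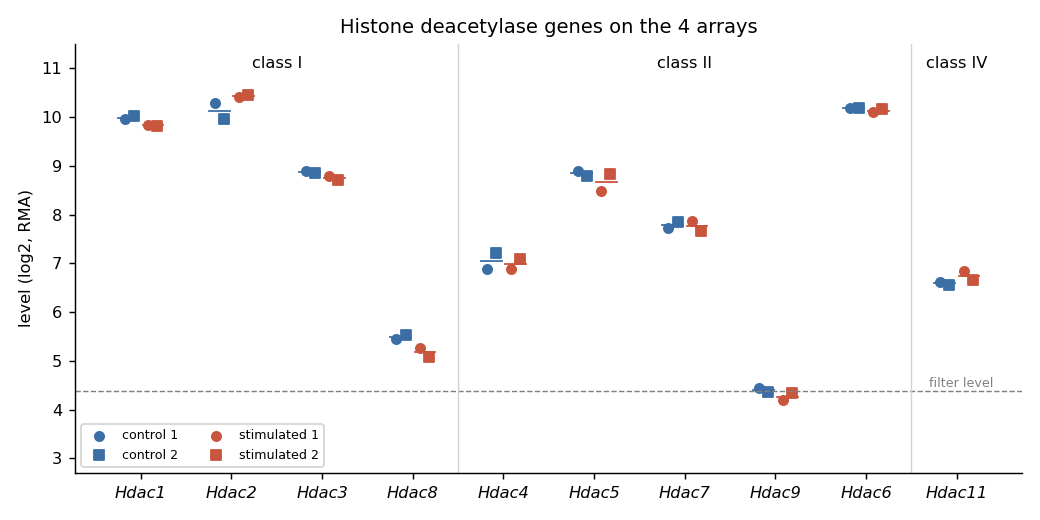
Level (log2, RMA) of the 10 histone deacetylase genes on each of the 4 arrays, from the probe set with the highest mean of each gene; points are arrays, short lines are group means, and the dashed line is the filter level of 4.39. Control and stimulated arrays lie close together for each gene, and Hdac9 lies at the filter level.

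Among class I genes, Hdac1 and Hdac2 encode close paralogs that share corepressor complexes. Hdac1 read 9.95 and 10.01 on the control arrays and 9.84 and 9.82 on the stimulated arrays. Both stimulated arrays lay below both controls, by a mean of 0.15 ± 0.12 (SE) on the log2 scale, which did not pass (adjusted p = 0.494 by limma, interval -0.44 to 0.14). Hdac2 read 10.29 and 9.96 on the control arrays and 10.42 and 10.45 on the stimulated arrays. Both stimulated arrays were above both controls, and the controls were further apart (SD 0.23) than the stimulated arrays (SD 0.023). The difference was 0.30 ± 0.15 (SE), with an adjusted p of 0.279 by limma and an interval of -0.07 to 0.67.

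Hdac2 had 2 other probe sets. By the manufacturer's naming, the probe set above has the suffix s, which marks probes that can match more than 1 transcript. A probe set without that suffix read 8.49 and 8.50 in controls and 8.79 and 8.92 in stimulated cells, again without overlap. Its difference was 0.36 ± 0.13 (SE; adjusted p = 0.167 by limma over 27022 probe sets, unadjusted p = 0.032). The remaining one averaged 3.86, under the filter level, and there the groups overlapped. Both Hdac2 probe sets past the filter thus read higher in the stimulated cells, and neither passed.

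Hdac3, the catalytic subunit of the NCoR and SMRT corepressor complexes, read 8.89 and 8.85 in controls and 8.78 and 8.70 in stimulated cells. Its only probe set also has the suffix s. The groups did not overlap, and the difference of -0.13 ± 0.12 (SE) did not pass (adjusted p = 0.574 by limma). Hdac8, a class I enzyme that deacetylates cohesin, read 5.46 and 5.53 in controls and 5.27 and 5.08 in stimulated cells. Both stimulated arrays were below both controls. Its difference, -0.32 ± 0.13 (SE), had the smallest p of the 9 genes (unadjusted p = 0.052, adjusted p = 0.20 by limma), and its interval was -0.64 to 0.0033. Hdac8 lay about 1 log2 unit above the filter level, where RMA can understate differences.

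Among class IIa genes, Hdac4 read 6.88 and 7.22 in controls and 6.89 and 7.09 in stimulated cells. The groups overlapped, and the difference was -0.057 ± 0.16 (SE; adjusted p = 0.874 by limma). Its other probe sets differed by -0.16 (groups overlapping) and -0.24 (not overlapping; adjusted p = 0.376 by limma over probe sets). The sign of the main Hdac4 value was not stable: it was 0.040 without stimulated array 1 and 0.11 without control array 2.

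Hdac5, which with Hdac9 is known as a brake on growth of heart muscle cells, read 8.90 and 8.80 in controls and 8.49 and 8.84 in stimulated cells. Only stimulated array 1 was below both controls. The difference of -0.19 ± 0.16 (SE) was the largest in class II among the probe sets used for the genes and did not pass (adjusted p = 0.523 by limma). It was -0.015 without stimulated array 1 and -0.36 without stimulated array 2, so it rested on stimulated array 1.

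Hdac7, known for its part in vessels and lymphocytes, read 7.73 and 7.85 in controls and 7.86 and 7.65 in stimulated cells. The groups overlapped, with a difference of -0.034 ± 0.14 (SE; adjusted p = 0.915 by limma). The sign turned without stimulated array 2 (0.071) and without control array 2 (0.023). A second Hdac7 probe set read 7.09 and 6.99 in controls and 6.89 and 6.85 in stimulated cells, a difference of -0.17 (adjusted p = 0.484 by limma over probe sets). Hdac9 was not tested: its brighter probe set averaged 4.33, below the filter level of 4.39, which is the 40th percentile of all probe sets. It read 4.43 and 4.35 in controls and 4.19 and 4.33 in stimulated cells, the value just outside the filter, and its other probe set averaged 3.05.

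Hdac6, the cytoplasmic tubulin deacetylase, differed least between the arrays of the control group. It read 10.18 on both control arrays and 10.10 and 10.17 on the stimulated arrays. The difference of -0.047 ± 0.12 (SE) did not pass (adjusted p = 0.857 by limma), and its interval ran from -0.34 to 0.25. Both stimulated arrays were below both controls, in 1 case by less than 0.01.

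Hdac11, the class IV gene, read 6.62 and 6.56 in controls and 6.84 and 6.66 in stimulated cells. The groups did not overlap, and the difference was 0.16 ± 0.13 (SE; adjusted p = 0.516 by limma). Its other probe set read 6.40 and 6.17 in controls and 6.78 and 6.73 in stimulated cells. This was the largest difference of any probe set of the 10 genes, 0.47 ± 0.14 (SE) or 1.39-fold (unadjusted p = 0.0152), and it did not pass after adjustment (adjusted p = 0.115 by limma over probe sets, of which 3.85% passed). The probe sets of a gene share its transcripts and are no replicates of each other.

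**Figure D2:**
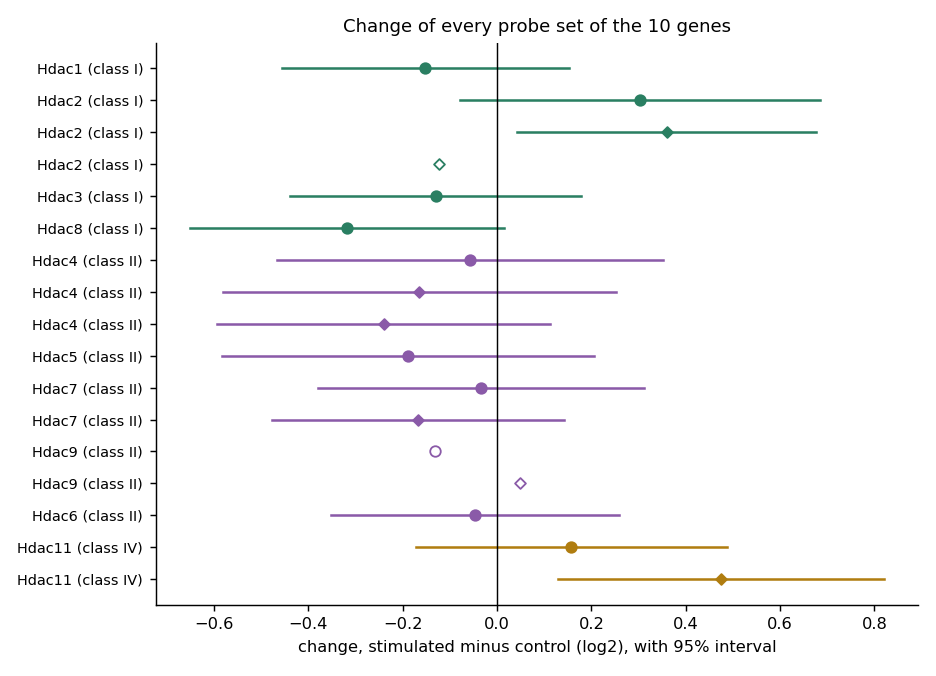
Change (stimulated minus control, log2) of all 17 probe sets of the 10 genes, with 95% confidence intervals from the fit over all probe sets past the filter; circles are the probe sets used for the gene, diamonds are the others, and open symbols lay below the filter and have no interval. Both Hdac11 probe sets and both Hdac2 probe sets past the filter lie to the right of 0, and the 7 class II probe sets past the filter lie to the left.

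Class I and class II were then compared. All 4 class I genes had groups that did not overlap, 1 higher (Hdac2) and 3 lower (Hdac1, Hdac3 and Hdac8) in stimulated cells. In class II this held for 1 of 4 genes tested, Hdac6, which was lower. Over all genes tested the groups did not overlap in 55.3%, 27.6% higher and 27.7% lower. The median difference was -0.14 in class I and -0.052 in class II, against -0.0056 for all genes tested. The class I genes thus spread to both sides of 0, from -0.32 to 0.30, and the class II genes lay within -0.19 to -0.034.

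The gap between the class medians, class I minus class II, was -0.089. Each array's mean deviation over the class I genes, taken from each gene's mean of the 4 arrays, was 0.066 and 0.0078 on the control arrays and -0.0061 and -0.068 on the stimulated arrays. Over the class II genes it was -0.0039 and 0.085 on the controls and -0.091 and 0.0098 on the stimulated arrays. Class I minus class II was 0.070 and -0.078 on the controls and 0.085 and -0.078 on the stimulated arrays. It was therefore positive on 1 array and negative on the other in each group, and the groups overlapped. Between the groups it differed by 0.0074 (stimulated minus control), opposite in sign to the gap between the medians, with an SD between arrays of 0.105 in controls and 0.115 in stimulated cells. No test was made of a score over genes of a class.

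**Figure D3:**
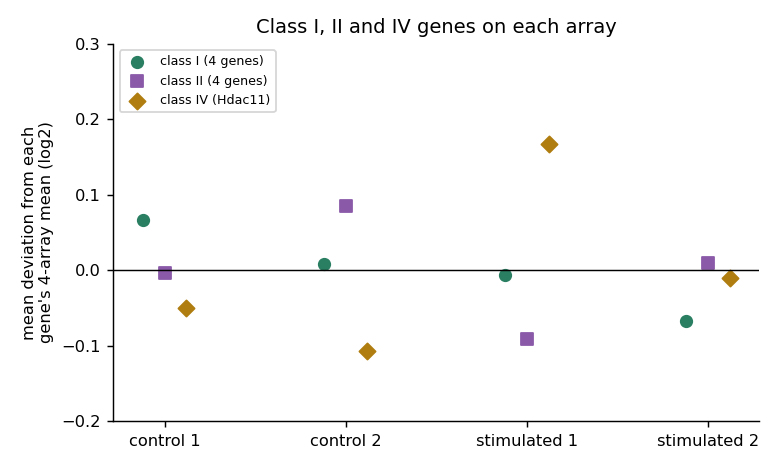
Mean deviation (log2) of class I (4 genes), class II (4 genes tested) and class IV (Hdac11) on each array from each gene's own mean of the 4 arrays. The class I points are lower on both stimulated arrays than on both controls, the class II points overlap between the groups, and Hdac11 is higher on both stimulated arrays.

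Counted by probe set, 14 of the 17 lay past the filter. Of these 4 read higher with stimulation, those of Hdac2 and Hdac11, and 10 read lower. All 7 class II probe sets past the filter were lower, with a median of -0.16, and the 5 class I probe sets had a median of -0.13. The order of the class medians thus turned when every probe set was counted, to 0.035 for class I minus class II. None of the 14 passed (0 called by limma, 2 at an unadjusted p under 0.05, in Hdac2 and Hdac11).

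**Figure D4:**
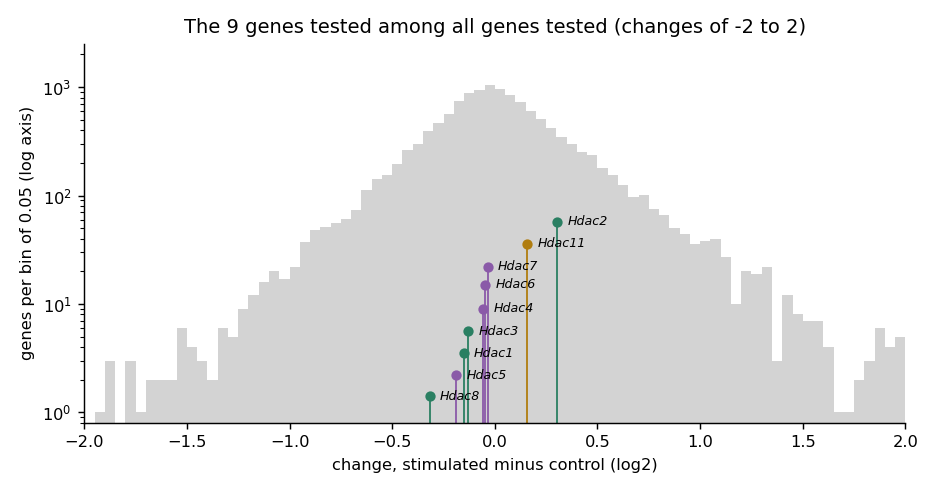
Histogram of the change (stimulated minus control, log2) of all genes tested between -2 and 2, with a log count axis, and the 9 histone deacetylase genes tested marked at their values (green class I, purple class II, gold class IV; heights only separate the names). The 9 genes lie between -0.32 and 0.30, in the central part of the distribution.

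Other genes of histone acetylation, and partners and regulators of the deacetylases, were taken as 10 lists with 137 genes, of which 127 were tested. In all 4 passed, 2 higher and 2 lower (3.15%, against 5.53% of all genes). All 4 were in the lists of partner transcription factors of class IIa enzymes and of HDAC6 partners. The sirtuins, deacetylases of another family that use NAD, had 0 of 7 called, with 1 at an unadjusted p under 0.05 against 25.6% of all genes. All 7 read higher, with a median of 0.14, while 50.9% of all genes tested read lower. Sirt1, a nuclear sirtuin, read 7.11 and 7.40 in controls and 7.70 and 7.95 in stimulated cells, a difference of 0.57 ± 0.16 (SE; adjusted p = 0.0958 by limma). Sirt4, a mitochondrial sirtuin, differed by 0.25 (adjusted p = 0.298). The groups did not overlap in 3 of the 7, Sirt1, Sirt4 and Sirt7, against 55.3% of all genes, and overlapped in the other 4; Sirt2 differed by 0.031 ± 0.12 (SE).

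Of 18 histone acetyltransferase genes, whose products oppose the deacetylases, 0 were called and the median was 0.080. At an unadjusted p under 0.05 there were 4 of 18, against 25.6% of all genes. Kat2a, the catalytic subunit known as GCN5, read 8.50 and 8.39 in controls and 9.56 and 9.05 in stimulated cells. Its difference of 0.86 ± 0.19 (SE) had an adjusted p of 0.0578 by limma, and its other probe sets differed by 0.19 and 0.69. Kat2a passed under 4 of the alternative settings, among them the replicate number as a block, which rests on a pairing that is not established. It did not pass with no filter, with the mean of all probe sets or with every probe set (adjusted p = 0.0659, 0.114 and 0.0672 by limma). Kat8, which acetylates histone H4, differed by 0.59 ± 0.14 (SE, adjusted p = 0.0622 by limma). It passed under 3 of the alternative settings, that block among them, but not with no filter, centring on the median, the trended robust prior or every probe set. The bromodomain genes, whose products bind acetylated lysine, had 0 of 20 called, with a median of 0.076. At an unadjusted p under 0.05 there were 3 of 20, against 25.6% of all genes. Trim24 differed by 0.76 (adjusted p = 0.0514 by limma) and Baz2a by 0.35 (adjusted p = 0.162). Trim24 passed under 4 of the alternative settings, among them the replicate number as a block. It did not pass with no filter, with the mean of all probe sets or with every probe set.

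The corepressor complexes that hold class I enzymes had no called gene by limma. Their counts at an unadjusted p under 0.05 stand against 25.6% of all genes. Of 11 NuRD subunits 0 were called and 4 had an unadjusted p under 0.05 (median 0.068); Gatad2a differed by 0.71 (adjusted p = 0.0728), but by -0.095 to 0.51 on its other probe sets, and Chd3, a remodelling ATPase, by 0.87 (adjusted p = 0.104). Of 12 SIN3 subunits 0 were called and 3 had an unadjusted p under 0.05 (median 0.0022); Sap30 differed by 0.63 (adjusted p = 0.0843) and Suds3 by -0.43 (adjusted p = 0.0921), and by -0.20 on the other probe set of Suds3. Of 10 CoREST and MiDAC subunits 0 were called and 0 had an unadjusted p under 0.05 (median 0.046). Phf21a differed by -0.24 and Rcor3 by 0.24 (adjusted p = 0.316 and 0.34). Of the 3 NCoR and SMRT subunits tested 0 were called and 0 had an unadjusted p under 0.05 (median -0.042). Tbl1x differed by -0.071 and Gps2 by -0.042. The other probe sets of Tbl1x differed by -0.69 and 0.21 (adjusted p = 0.0801 and 0.527 by limma over probe sets).

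The list of partner transcription factors of class IIa enzymes held 2 of the calls. Of 17 partner transcription factors, Hand2 fell by 1.15 ± 0.18 (SE; adjusted p = 0.0317 by limma) and Gata4 fell by 0.74 ± 0.13 (SE; adjusted p = 0.0382), 0 rose and the median was -0.12. In that list 2 of 17 were called, against 5.53% of all genes, and 8 had an unadjusted p under 0.05, against 25.6% of all genes. Hand2 and Gata4 are transcription factors of heart development, and whether they act with class IIa enzymes in these cells was not tested. Gata4 is also among the 12 atrial muscle markers below, of which 11 read lower and 1 higher. The kinases that phosphorylate class IIa enzymes and the 14-3-3 proteins that bind them had 0 of 21 called (median -0.072). At an unadjusted p under 0.05 there were 5 of 21, against the same 25.6% of all genes. Ywhag, a 14-3-3 gene, differed by 0.80 (adjusted p = 0.0585) but by -0.44 and 0.37 on its other probe sets, and the kinase gene Sik2 differed by 0.58 (adjusted p = 0.0766) but by 0.28 on its other probe set (adjusted p = 0.345 over probe sets).

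Of 8 genes of HDAC6 partners and tubulin acetylation, 2 rose and 0 fell, against 5.53% of all genes called. The median was 0.35, and 4 had an unadjusted p under 0.05, against 25.6% of all genes. Sqstm1, an autophagy receptor that binds ubiquitin, read 10.78 and 11.03 in controls and 12.40 and 12.54 in stimulated cells and rose by 1.56 ± 0.14 (SE) or 2.95-fold (adjusted p = 0.0132 by limma; its other probe set, at 0.58, did not pass, adjusted p = 0.0646 over probe sets). Hsp90aa1, a chaperone that HDAC6 deacetylates, rose by 0.97 ± 0.18 (SE; adjusted p = 0.0406). Hdac6 itself, as above, differed by -0.047. With any 1 array left out, Sqstm1, Hsp90aa1 and Gata4 no longer passed, and Hand2 passed only without stimulated array 2; their directions held. Without control array 1, without control array 2 and without stimulated array 1 the lists had 0 calls.

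**Figure D5:**
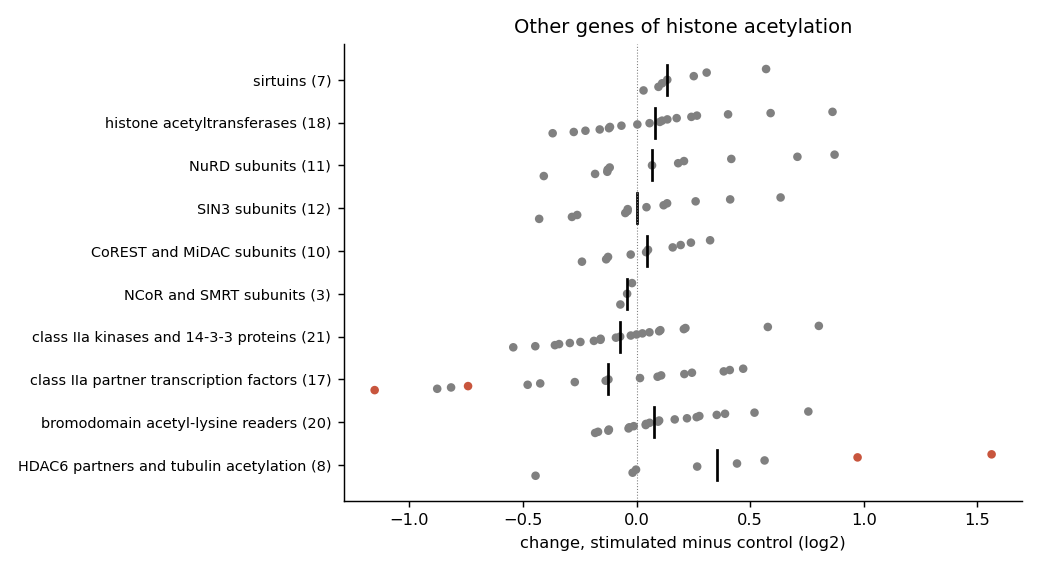
Change (stimulated minus control, log2) of each gene tested in 10 lists of histone acetylation genes and of partners and regulators of the deacetylases. The number tested is in brackets. Black lines are list medians, red points passed at an adjusted p of 0.05 and grey points did not. Hand2 and Gata4 lie left and Sqstm1 and Hsp90aa1 right among the red points, and all 7 sirtuins lie right of 0.

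The cells' labels were set against marker genes. All 12 atrial muscle markers lay past the filter, among them the light chain gene Myl7 at 13.84 in controls and 13.58 in stimulated cells. Their summed level (log2 of summed values) was 16.03 on both controls and 15.72 to 15.96 on the stimulated arrays; Nppa rose, and Ryr2, Gata4 and Tbx5 fell. Of 8 fibroblast markers 5 lay past the filter, 0 passed the test, and the sum was 7.57 to 8.40 in controls and 7.50 to 8.12 in stimulated cells. Of 4 smooth muscle markers 3 lay past the filter and 0 passed, with sums of 13.79 to 13.96 and 13.76 to 13.94, while Myh11 lay below it at 4.09. Of 6 endothelial markers only Kdr lay past the filter and did not pass (sums 6.92 to 7.05 and 6.83 to 6.91). Of 6 leukocyte markers 4 lay past the filter (sums 7.60 to 8.27 and 8.47 to 8.69), and Cd68, which also marks lysosomes, rose by 2.08 (adjusted p = 0.0187), while Ptprc lay at 3.24 and Itgam at 3.52, below the filter. Csf1r, past the filter at a mean of 6.94, differed by 0.89 with overlapping groups, and Cd3e, at 6.40, differed by 0.072; neither passed. Their part in the values above was not tested, and in whole-culture RNA fewer cells of a type and less RNA per cell cannot be told apart.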

How the data were processed

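The authors deposited log2 values made with RMA, per the submitters' processing notes, a method of background correction, quantile normalization and summary by probe set whose version and settings are not given in the sources used here. Array medians lay between 4.96 and 5.01, and the number of arrays, 4, limits the precision. Probe sets were named from the platform annotation: apart from 64 controls, 34945 had 1 symbol, 932 several and 9160 none. The identifiers of all 10 members were in the RefSeq table of GRCm38.p6. For each gene the probe set of highest mean was used. The 13058 genes at or above the 40th percentile of all probe sets (4.39) were tested in R 4.3.3 by limma 3.58.1 (two-sided, eBayes after lmFit, Benjamini-Hochberg, threshold 0.05). That step was also run on simulated data with planted differences. These were all larger than the differences of the members, so the run gives no measure of power at the members' sizes. All probe sets past 4.39 were also fitted as features of their own. "Rose", "fell" and "called" mean that this threshold was passed. Changes are stimulated minus control with the standard error of the fit. Arrays of a group correlated across genes at 0.992 (controls) and 0.989 (stimulated), and arrays of different groups at 0.968 to 0.975.

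The members and lists were chosen with earlier results of these data known. Hdac6, Hdac4, Hdac5, Hdac7 and Hdac9 stood for class II, and Hdac11 for class IV. From each list the text names the called genes (up to 4, by smallest p) or else the 2 with the smallest p. Alternatives were another filter, no filter, the mean of all probe sets, every probe set, centring on the median, a trended robust prior, each array left out, and the replicate number as a block. Motifs were searched in RefSeq promoter windows of Hdac5, Hdac7 and Hdac11, and in all 32851 windows for the shares.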

Additional observations from a re-analysis of the deposited data

How the results depend on the processing

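No histone deacetylase gene passed under any alternative run: the count of members called was 0 in each, with 0 to 2 at an unadjusted p under 0.05. Of 103 values of single members under an alternative, 99 kept their sign and 4 turned, each with 1 array left out, in Hdac4 (-0.23 to 0.11) and Hdac7 (-0.14 to 0.071). With an array left out the class I median ran from -0.17 to -0.12, the class II median from -0.12 to -0.011 and their gap from -0.15 to 0.0029. The class II median was -0.13 with the mean of all probe sets and -0.16 with every probe set, where the gap was 0.035; the other probe sets of Hdac4 and Hdac7 had larger downward differences than those used. The count over all genes, 722, was 20 to 113 with an array left out, where fewer samples are fitted. List genes called, 4, became 0 to 1 with an array left out, 9 with the 60th percentile filter, 9 with the mean of all probe sets, 8 with the trended robust prior and 8 with every probe set. Signs turned for Gatad2a (-0.095 and -0.051), Rcor3 (-0.25 and -0.36), Ywhag (-0.44) and Tbl1x (0.21) on other probe sets, for Rcor3 with the mean of all (-0.00029), and with an array left out for Gps2 (-0.20 to 0.12) and Tbl1x (-0.17 to 0.028). Ywhag passed with the 60th percentile filter, with the trended robust prior and with the replicate number as a block. With that block, 1345 genes, 13 list genes and 0 members passed. The list genes that passed with it included Kat2a, Kat8, Trim24, Ywhag, Sirt1, Chd3, Gatad2a and Sik2. Deviations of same-numbered arrays correlated at 0.33 across genes, but the control numbers follow accession order, apart from a mention of sample 2 in a protocol text, so the numbers do not establish a pairing. Low signal kept Hdac9 out of the test.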

Other observations

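Hdac10, the class IIb paralog of Hdac6, was not among the 10 members. Its probe set past the filter read 5.71 on both control arrays and 5.77 and 5.86 on the stimulated arrays, a difference of 0.10 that did not pass (adjusted p = 0.697 by limma over probe sets). With Hdac10 counted in class II, an alternative added after the data were seen, the class II median was -0.047, the gap to class I was -0.094 and 0 genes passed.

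The MEF2 genes, whose products class IIa enzymes bind, are given here although chosen after their values were seen. Mef2c differed by -0.88 ± 0.18 (SE; adjusted p = 0.0515 by limma), Mef2a by -0.42 (adjusted p = 0.0988), Mef2d by -0.14 (adjusted p = 0.543) and Mef2b by 0.38 (adjusted p = 0.12). None passed the threshold, and they did not share a sign. The kinase genes Camk2d and Camk2g, also chosen after their values were seen, differed by -0.025 and 0.099. In the list of kinases and 14-3-3 proteins 8 of the 21 genes tested read higher and 13 read lower. The lowest was the kinase gene Prkd1, at -0.54 ± 0.14 (SE), which did not pass (adjusted p = 0.0838 by limma).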
